A study of Mus musculus with 10 samples.

Results

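Mouse MC3T3-E1 cells kept for 24 h in osteogenic medium (24h) were compared with the same cells at confluence (confluent), to ask which transcripts change in the first day of osteoblast differentiation. The comparison takes 4 of the 10 RNA-seq samples of the series, 2 replicates per group named A and B, chosen by their sample titles, and covers all 40620 genes of the count table, of which 20808 had enough reads to be tested. MC3T3-E1 is an established pre-osteoblast line from newborn mouse calvaria, the flat bone of the skull roof, so replicates of it are not separate animals. Confluent cells were in growth medium (αMEM with 10% inactivated fetal serum), and the 24h cells had been moved to αMEM with 10% serum, penicillin-streptomycin and 2 supplements, ascorbic acid at 50 µg/ml and β-glycerophosphate at 10 mM. The paper also lists penicillin-streptomycin and L-glutamine in the maintenance medium of these cells. No further agent is named for either group. The supplements, the change of medium and the added day in culture cannot be told apart. The deposited labels give confluent A and 24h A the same lane number and index (library barcode), and confluent B another lane number than 24h B. Flow cells are not named, so whether the groups differ in sequencing run is not known. Gene counts summed to 49717716 in confluent A, 162939333 in confluent B, 136112934 in 24h A and 115908557 in 24h B.

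Osteoblasts build bone by secreting a matrix of type I collagen and then mineralizing it. Ascorbic acid is the cofactor of the enzymes that hydroxylate collagen, and β-glycerophosphate is a source of phosphate for mineral. Runx2 and Sp7 are the transcription factors that set the lineage, alkaline phosphatase (Alpl) frees phosphate, and bone sialoprotein (Ibsp), osteocalcin (Bglap) and osteopontin (Spp1) are matrix proteins used to follow maturation. Levels below are CPM, read counts relative to library size, scaled by the trimmed mean of M values (TMM) method. Fold changes are log2 values from edgeR's quasi-likelihood fit, at n = 2 per group. The value after ± is a standard error (SE) worked out from the fold change and the F statistic of the test. Its spread is pooled over the 10 samples of the series and is not that of the 4 samples. Adjusted p is Benjamini-Hochberg over the genes tested.

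The genes that rose at 24h included 10 of 22 bone matrix and mineralization genes, such as Ibsp and Alpl, 8 of 19 Wnt targets and antagonists, such as Wif1 and Axin2, and Tsc22d3, Fkbp5, Mt2, Igf2 and H19. Those that fell included 19 of 29 genes of cholesterol synthesis and its regulator SREBP, and Fos and Egr1. In the edgeR fit 443 genes were called, meaning an adjusted p under 0.05 and more than 2-fold, with 367 higher (1.76% of genes tested) and 76 lower (0.365%). At any fold size, 746 genes rose (3.59%) and 326 fell (1.57%). Counts of list members below are to be read beside these shares, and a count near them does not set a list apart. The share of called genes that were higher was 82.8%. It was 71.7% when samples were scaled by library size alone, which moved the median of all genes by -0.13, and 64.0% and 68.9% on log2 RPKM (reads scaled to gene length and depth) with a pseudocount of 1 and 0.1. Without 24h B the balance turned, and 42.5% of the calls were higher (1016 higher and 1372 lower).

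The replicates of 24h lay far apart, so each was also set alone against the mean of the confluent samples. Of the 443 called genes, 339 were past 2-fold in each 24h replicate, 289 upward (1.39% of genes tested) and 50 downward (0.24%). Another 65 were past 2-fold in 24h A alone, 38 in 24h B alone and 1 in neither. In 443 of the 443 the 24h samples lay on 1 side of both confluent samples. The call on these same samples makes this likely, so it is not separate support. The share of all genes tested that did so was not counted. Of the 443, 403 were also called when 24h A was the sole 24h sample of the fit, 351 when 24h B was, and 311 under each. Among the genes tested as a whole, 3841 were past 2-fold in 24h A and 1886 in 24h B, with 987 past it the same way in both and 172 past it in opposite directions.

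**Figure D1:**
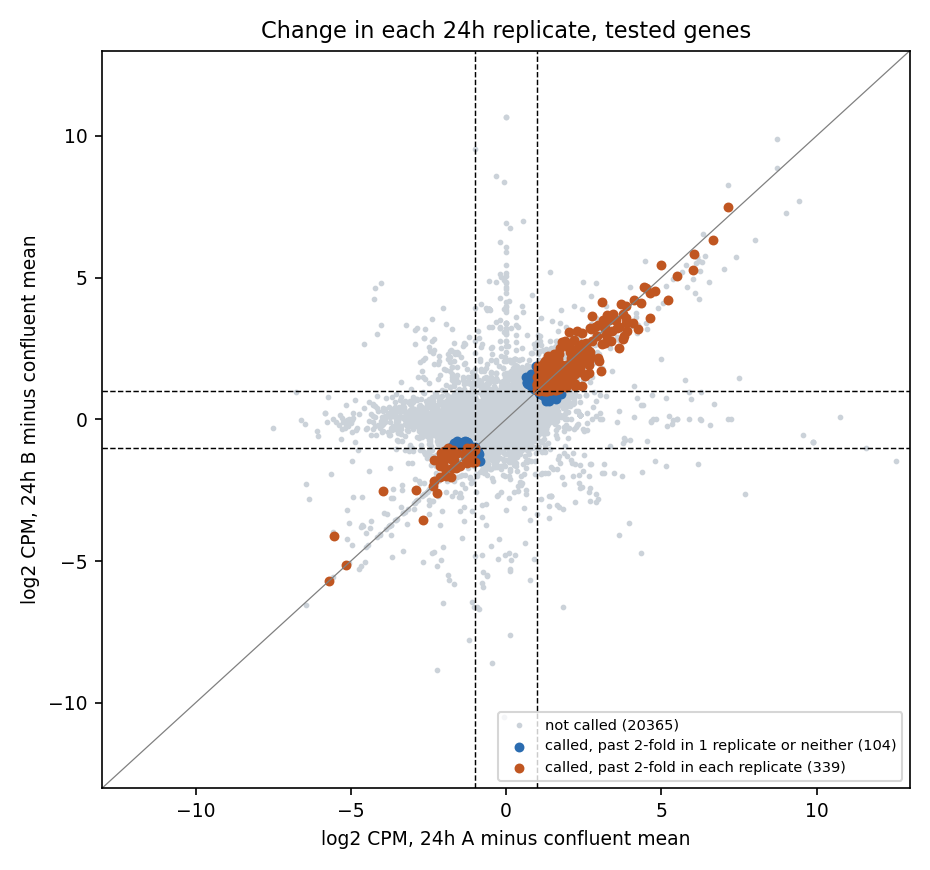
Change of each tested gene in 24h A (horizontal axis) and 24h B (vertical axis) as log2 CPM minus the mean of the confluent samples. Dashed lines mark 2-fold, orange points are the 339 genes called and past 2-fold in each replicate, blue points the other 104 called genes, and grey points the 20365 genes not called, many of which moved in 1 replicate alone.

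These calls rest on the spread pooled over the 5 stages of the series. In a fit of the 4 samples alone edgeR called 0 genes (lowest adjusted p 0.074), with 1824 genes at an unadjusted p under 0.05, while DESeq2 on the 10 samples called 690. A fit that gives each sample a quality weight set the weights of 24h A and 24h B to 0.135 each and called 69. Leaving out confluent A left 141 calls and leaving out confluent B left 183, whereas 511 were called without 24h A and 2388 without 24h B. Nothing in the labels says that A and B are separate cultures, so p-values measure the spread between these samples, which may be technical.

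In the 16133 genes that reached 10 counts in each of the 10 samples, the SD of the log2 difference between A and B was 0.674 at 24h, against 0.306 in confluent and 0.282 to 0.321 in the other 3 groups. The share of these genes that differed by more than 2-fold between A and B was 8.67% at 24h and 0.738% to 1.09% elsewhere. The difference went with gene length. For genes up to 1000 bases the median of 24h A minus 24h B was 0.21 on the log2 scale, and for genes over 5000 bases it was -0.39. Genes under 1500 bases took 45.4% of the counts in 24h A, against 34.8% in 24h B, 34.4% in confluent A and 37.0% in confluent B.

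**Figure D2:**
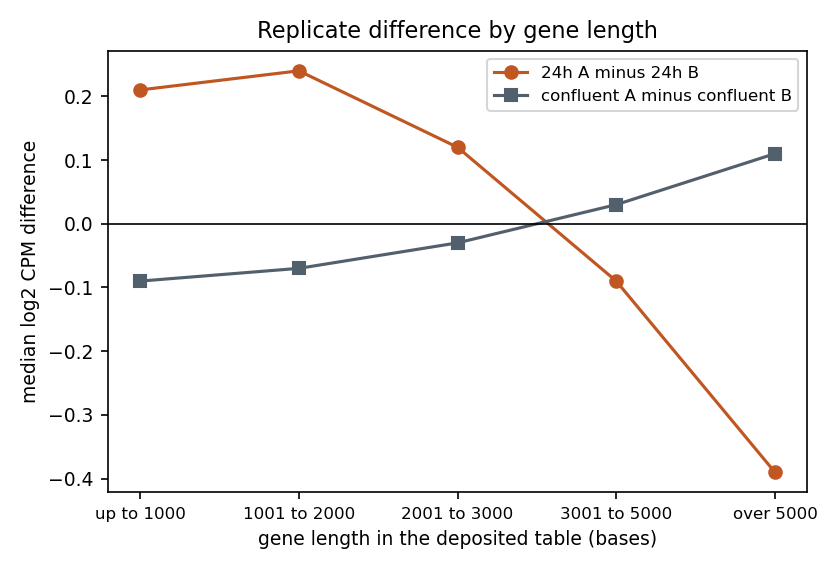
Median log2 CPM difference between replicates A and B by gene length in bases, for 24h (orange circles) and confluent (grey squares). The 24h difference runs from 0.21 in the shortest genes to -0.39 in the longest, and the confluent difference from -0.09 to 0.11.

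The split between the 24h replicates was plain in several gene groups. The 32 cytosolic ribosomal protein genes tested had a median of 0.89 in 24h A and 0.13 in 24h B against confluent, and 0 of 32 passed the test. Their summed level was 17800 and 21000 CPM in confluent A and B, 35500 in 24h A and 20900 in 24h B, so that 24h A alone stood apart. The 30 nuclear genes for respiratory chain subunits, the proton pumps and carriers of the inner mitochondrial membrane, had medians of 0.48 in 24h A and -0.21 in 24h B, with 0 of 30 passed. The part that length plays in single genes was not tested, but with the length trend of each sample removed 526 genes were called, 419 of them among the 443.

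**Figure D3:**
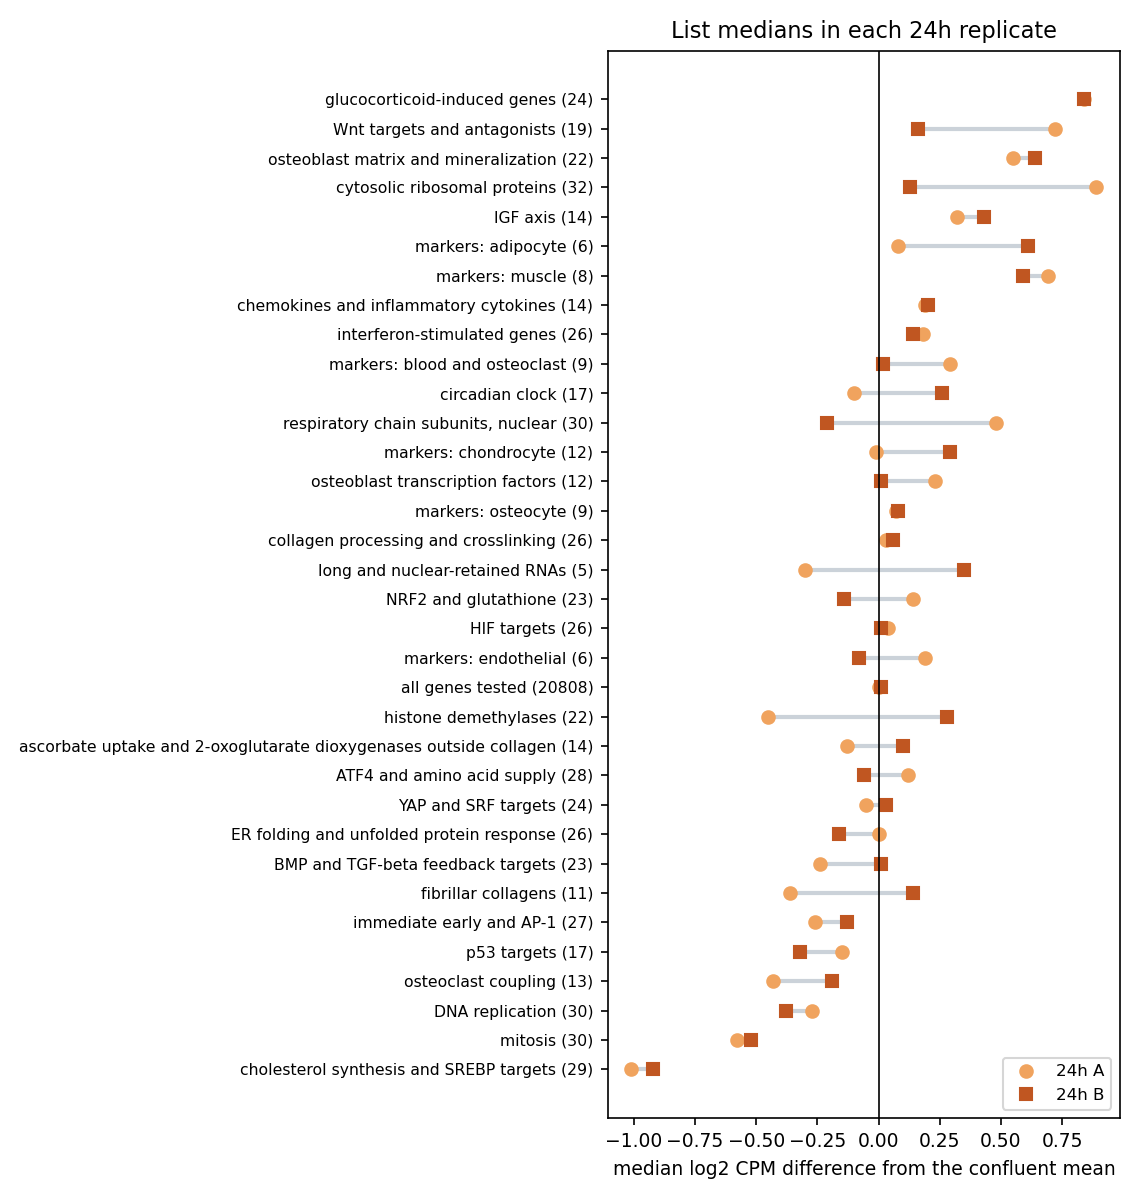
Median log2 CPM difference from the confluent mean for each gene list (number of genes tested in brackets), in 24h A (circles) and 24h B (squares). The medians of the cholesterol (-1.01 and -0.92), mitosis (-0.58 and -0.52), osteoblast matrix (0.55 and 0.64) and glucocorticoid (0.84 and 0.84) lists lay close together, while those of ribosomal proteins, respiratory chain subunits and histone demethylases lay apart.

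Part of the bone matrix genes rose. Of 22 matrix and mineralization genes, 10 rose and 0 fell. Their median was 0.65 on the log2 scale, beside 0 for all genes tested, and 13 were higher in both 24h replicates. Their summed level was 55900 and 54600 CPM in confluent, 48600 CPM in 24h A and 65700 CPM in 24h B, on either side of confluent. Ibsp, which binds collagen and seeds mineral (chr5:104299171-104311469, GRCm38), stood at 254 and 266 CPM in confluent A and B and at 1370 and 1500 CPM in 24h A and B. Its groups were far apart and the 24h replicates close, with a log2 fold change of 2.46 ± 0.23 and an adjusted p of 0.0028. Omd, or osteoadherin, a small proteoglycan of mineralized matrix, stood at 8.17 and 10.0 CPM in confluent and 43.1 and 46.4 CPM at 24h (2.29 ± 0.23). The rise was again nearly equal in the 24h replicates. Mepe, a phosphoprotein of late osteoblasts and osteocytes, was scarce, at 0.0922 and 0.122 CPM in confluent and 0.71 and 0.646 CPM at 24h (2.59 ± 0.29). These CPM are 5 and 21 counts against 87 and 79.

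Alpl rose from 13 and 14.9 CPM to 30.7 and 30.9 CPM, a log2 fold change of 1.14 ± 0.12 (adjusted p 0.0037), with hardly any gap between the 24h replicates. Postn, or periostin, a matricellular protein of the periosteum, went from 1230 and 1170 CPM to 2790 and 3600 CPM (1.42 ± 0.14). Ifitm5, a membrane protein of mineralizing osteoblasts, went from 3.93 and 5.01 CPM to 18.7 and 11.9 CPM (1.77 ± 0.22), past 2-fold in each replicate but by more in 24h A. Mgp, an inhibitor of mineralization, rose from 956 and 1090 CPM to 3170 and 2030 CPM (1.35 ± 0.21), past 2-fold in 24h A alone. Of the 7 called genes of this list, 6 were past 2-fold in each 24h replicate. The other risers were Sparc (0.65 ± 0.10), Phospho1 (0.84 ± 0.11) and Ogn (0.64 ± 0.14), each under 2-fold. Without confluent A 4 of the 10 kept an adjusted p under 0.05 (Ibsp and Alpl among them, both at 0.046), and without confluent B 5 did.

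Other classical bone markers did not pass the test. Osteocalcin Bglap was at 4.98 and 6.46 CPM in confluent and 16.7 and 8.46 CPM at 24h, and its 2 near-identical neighbours, among which reads may be shared, were alike. The higher value came from 24h A, and the difference did not pass (1.13 ± 0.51, adjusted p 0.23). Spp1 was at 241 and 224 CPM in confluent and 242 and 220 CPM at 24h (-0.01 ± 0.19, adjusted p 0.99). Col1a1, the main collagen chain of bone, was at 25600 and 25200 CPM in confluent, 17100 CPM in 24h A and 26900 CPM in 24h B. Its 24h replicates lay on either side of confluent (-0.21 ± 0.21, adjusted p 0.58). Dmp1, an osteocyte matrix protein, was at 1.53 and 1.6 CPM in confluent and 1.31 and 1.05 CPM at 24h (adjusted p 0.38).

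Of 12 osteoblast transcription factors, 2 rose, beside 3.59% of all genes tested. Sp7 (osterix) stood at 79.1 and 75.9 CPM in confluent and at 135 and 132 CPM at 24h. The 24h replicates were nearly equal and the groups did not overlap (0.78 ± 0.09, adjusted p 0.0045). Dlx3, a homeobox factor of osteoblasts, rose from 1.2 and 1.76 CPM to 3.37 and 3.26 CPM (1.15 ± 0.17, adjusted p 0.013). Both kept an adjusted p under 0.05 with each confluent or 24h library left out in turn. Runx2 was at 140 and 128 CPM in confluent and 135 and 181 CPM at 24h, so that 24h A lay within the confluent range (0.24 ± 0.14, adjusted p 0.34). Runx2 did not pass in 17 of 19 alternative fits and passed in 2. One of the 2 was edgeR with the length trend removed (adjusted p 0.017).

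**Figure D4:**
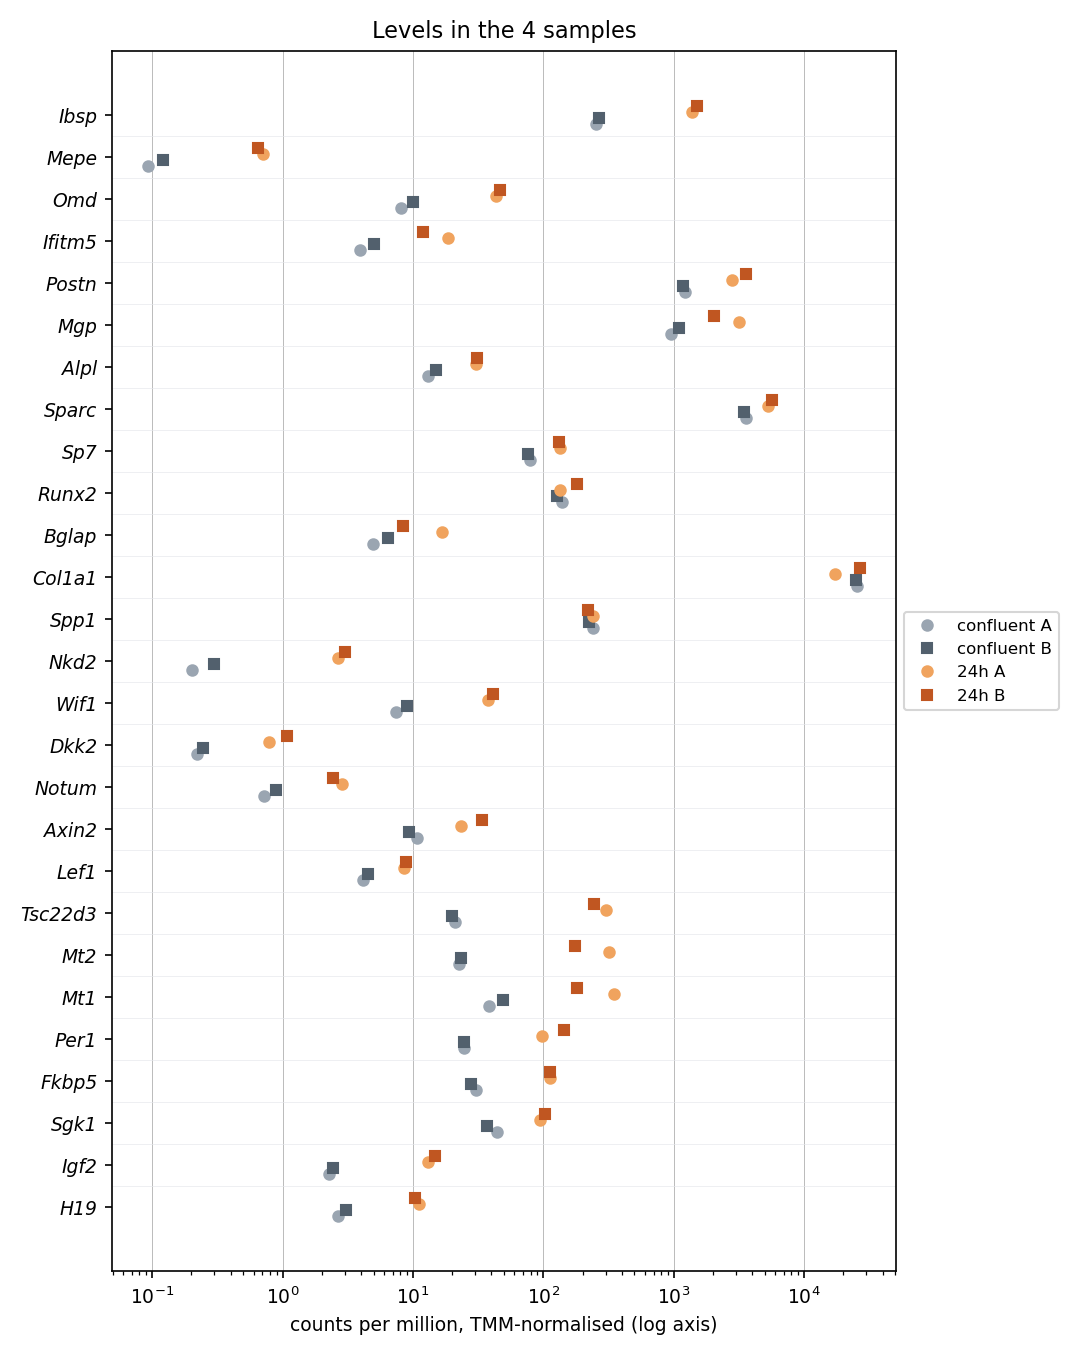
TMM-normalised CPM (log axis) of named genes in confluent A and B (grey) and 24h A and B (orange), circles for A and squares for B. The 24h symbols of Ibsp (1370 and 1500), Wif1 (37.9 and 41.0) and Fkbp5 (113 and 112) sit close together and above confluent, those of Bglap, Mt1 and Mt2 spread, and those of Spp1 overlap confluent.

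Collagen genes and the ascorbate-dependent enzymes were set beside all genes tested, of which 3.59% rose and 1.57% fell. Of 11 fibrillar collagen genes 2 rose and 1 fell. Col3a1, which forms fine fibrils with type I collagen, rose from 3090 and 3020 CPM to 4690 and 6240 CPM (0.84 ± 0.15), Col11a2 rose by 0.79 ± 0.17, and Col2a1, the cartilage collagen, fell from 303 and 280 CPM to 136 and 172 CPM (-0.92 ± 0.13, adjusted p 0.011). Of 26 genes of collagen processing and crosslinking 2 rose. Lox, which starts the crosslinking of collagen, went from 161 and 133 CPM to 338 and 506 CPM (1.52 ± 0.20, adjusted p 0.0079), past 2-fold in each 24h replicate, and Pcolce, an enhancer of procollagen cleavage, rose by 0.53 ± 0.10. Of 14 ascorbate transporters and ascorbate-dependent dioxygenases outside the collagen pathway 0 passed in edgeR. Their median was -0.13 in 24h A and 0.10 in 24h B. Of 22 histone demethylase genes 1 rose, Kdm7a, from 6.09 and 5.35 CPM to 14.0 and 22.5 CPM (1.68 ± 0.21, adjusted p 0.0064). Kdm1a (Lsd1) stood at 53.5 and 51.9 CPM in confluent and 52.2 and 49.2 CPM at 24h (-0.06 ± 0.07, adjusted p 0.66). Without confluent A 0 of the 3 collagens, Lox, Pcolce and Kdm7a kept an adjusted p under 0.05 in edgeR, with Lox at 0.054 and Kdm7a at 0.055, and without confluent B Col11a2 alone did.

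Wnt proteins bind Frizzled receptors, stabilize β-catenin and drive bone formation, and many of their targets encode brakes on the same pathway. Of 19 Wnt targets and antagonists tested, 8 rose and 1 fell, with a median of 0.88 beside 0 for all genes. Of the 6 called, 5 were past 2-fold in each 24h replicate. The medians were 0.72 in 24h A and 0.16 in 24h B, and 11 of the 19 were higher in both. The summed level of the list, 494 and 457 CPM in confluent and 466 and 501 CPM at 24h, overlapped between the groups. Wif1, a secreted protein that traps Wnt ligands, stood at 7.45 and 9.0 CPM in confluent and 37.9 and 41.0 CPM at 24h. The replicates of each group were close and the groups far apart (2.26 ± 0.11, adjusted p 0.00039). Nkd2, which restrains Dishevelled, rose from 0.203 and 0.297 CPM to 2.64 and 2.99 CPM (3.46 ± 0.31). Axin2, a scaffold of the β-catenin destruction complex and a standard readout of the pathway, rose from 10.7 and 9.41 CPM to 23.5 and 34.1 CPM (1.52 ± 0.18), by more in 24h B.

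The secreted antagonist Dkk2 rose by 1.98 ± 0.24, the Wnt deacylase Notum by 1.71 ± 0.23, the β-catenin partners Lef1 and Tcf7 by 1.02 ± 0.13 and 0.88 ± 0.16, and the receptor ligase Rnf43 by 0.88 ± 0.13. Sfrp2, another secreted modulator, fell from 212 and 187 CPM to 153 and 134 CPM (-0.48 ± 0.11). Sost and Sp5 were at 0 counts in the 4 samples. Of the 9, 2 kept an adjusted p under 0.05 without confluent A and 2 without confluent B.

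Among 23 BMP and TGF-beta feedback targets 3 rose and 4 fell, with a median of -0.07, while 3.59% of all genes tested rose and 1.57% fell. Id4, a dominant-negative helix-loop-helix factor, rose from 37.2 and 34.0 CPM to 68.3 and 62.2 CPM (0.87 ± 0.09), and Pmepa1, which TGF-beta induces and which dampens its signalling, rose by 0.56 ± 0.09. Tgfbi, a matrix protein named for its induction by TGF-beta, fell from 37.6 and 32.0 CPM to 12.5 and 11.1 CPM (-1.56 ± 0.19, adjusted p 0.006). The BMP antagonist Grem1 fell by 0.92 on the log2 scale, and the inhibitory Smad7 by 0.69. Members that TGF-beta is known to induce thus stood on both sides. Of these 7, 1 kept an adjusted p under 0.05 without confluent A and 2 without confluent B. Of 13 osteoclast coupling genes tested, Tnfrsf11b, the decoy receptor osteoprotegerin that blocks RANKL, rose from 32.9 and 32.6 CPM to 51.2 and 75.6 CPM (0.95 ± 0.19), and the cytokine Lif fell from 6.16 and 5.34 CPM to 1.64 and 1.4 CPM (-1.92 ± 0.23). Tnfrsf11b missed an adjusted p of 0.05 without either confluent library and Lif without confluent A.

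A list of 24 genes known to be induced by glucocorticoids was drawn up after the rises of Tsc22d3, Mt2, Per1 and Fkbp5 had been seen, so its counts describe these samples and support nothing. Of the 24, 12 rose and 1 fell, 10 were called higher, and 9 were past 2-fold in each 24h replicate. The median was 0.84 in each replicate. Their summed level was 506 and 496 CPM in confluent and 1680 and 1420 CPM at 24h. The medium of these cultures is not said to contain a glucocorticoid beyond what serum carries. Tsc22d3, the glucocorticoid-induced leucine zipper (chrX:140539528-140600659), stood at 21.0 and 19.9 CPM in confluent and 300 and 243 CPM at 24h. It had the lowest adjusted p of the genes tested, 0.00023, at a log2 fold change of 3.73 ± 0.13. Fkbp5, a cochaperone of the glucocorticoid receptor, rose from 30.6 and 28.1 CPM to 113 and 112 CPM (1.94 ± 0.08).

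Metallothioneins bind zinc and copper and respond to metals as well as glucocorticoids. Mt2 rose from 22.6 and 23.3 CPM to 319 and 175 CPM (3.43 ± 0.27) and Mt1 from 38.6 and 49.5 CPM to 347 and 180 CPM (2.58 ± 0.32). Both were past 2-fold in each replicate, and both were higher in 24h A, as genes up to 1000 bases were in the median. Per1, a clock repressor also induced by steroids, rose from 24.6 in each confluent sample to 98.5 and 145 CPM (2.31 ± 0.17), and was higher in 24h B. Sgk1, a kinase that regulates ion transport, went from 44.3 and 37.2 CPM to 93.5 and 103 CPM (1.27 ± 0.10) and glutamine synthetase Glul from 25 and 23.9 CPM to 57.1 and 57.4 CPM (1.23 ± 0.08). Crispld2, Errfi1, Nfkbia, Ddit4 and Lcn2 also rose, and Tgm2 fell by 0.83. Klf9, another gene of the list, was at 10.4 and 9.27 CPM in confluent, 6.18 CPM in 24h A and 17.2 CPM in 24h B, so it moved in opposite directions (adjusted p 0.74), and Pdk4 had 66.5 and 63.7 CPM against 36.9 and 55.2 CPM (adjusted p 0.17). Of the 13 that passed, 7 kept an adjusted p under 0.05 without confluent A and 8 without confluent B.

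The promoters of these genes were searched for the palindromic glucocorticoid response element with a 3-base spacer, on both strands, in the RefSeq promoter table (GRCm38.p6), which holds 250 bases before to 50 after each start. Of the 24 list members 19 had an entry and 2 of the 19 (10.5%) held a match, against 0.537% of the 27025 genes in the table, although the 19 have 29 promoters among them. Both were among the 12 risers (16.7%), which were chosen by their rise from a list drawn up after values had been seen, so nothing is read from the share. The stretches around these matches are shown because Mt1 and Sgk1 are risers of this list, with the match in capitals, 5′ to 3′ on the plus strand. The Mt1 stretch is chr8:94178970-94179032, where the match begins 94 bases before the start site, and the Sgk1 stretch is chr10:21993677-21993739, where it begins 188 bases before 1 of its 6 start sites.
Mt1: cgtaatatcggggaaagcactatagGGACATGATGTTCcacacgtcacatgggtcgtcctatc
Sgk1: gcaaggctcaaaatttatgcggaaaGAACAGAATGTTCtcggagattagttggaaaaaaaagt
A match is a description of letters, not of binding.

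Insulin-like growth factor genes, in a list of 15 also drawn up after values had been seen, held 5 risers among the 14 tested. Igf2, a fetal growth factor, stood at 2.27 and 2.43 CPM in confluent and 13 and 14.7 CPM at 24h (2.55 ± 0.16, adjusted p 0.00056). H19, the noncoding RNA of the same imprinted locus, stood at 2.64 and 3.09 CPM in confluent and 11.2 and 10.3 CPM at 24h (1.90 ± 0.17). Both rises were even between the replicates. Igfbp4, which binds the factors in the medium, rose from 27.9 and 30.3 CPM to 77.7 and 72.6 CPM (1.37 ± 0.09), and Irs1 and Igfbp7 rose by 0.72 ± 0.09 and 0.59 ± 0.11.

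The largest rises among genes of at least 5 CPM on average lay partly outside these lists. Gdpd2, a glycerophosphodiester phosphodiesterase of osteoblast membranes (chrX:100729873-100738895), stood at 1.59 and 1.74 CPM in confluent and 38.2 and 41.6 CPM at 24h. At 4.58 ± 0.25 it was the largest rise that the naming rule found. Enpp2, or autotaxin, which makes lysophosphatidic acid, rose from 1.31 and 1.21 CPM to 14.7 and 14.5 CPM (3.54 ± 0.20). Rgcc, a cell cycle regulator, rose from 1.51 and 1.78 CPM to 14.2 and 10.3 CPM (2.89 ± 0.19).

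Of the 10 largest rises 5 were Rbmy or its copies on the Y chromosome, a gene family of germ cell RNA-binding proteins. Rbmy itself (chrY:2830680-2841854) stood at 0.553 and 0.98 CPM in confluent and 11.0 and 12.1 CPM at 24h (3.88 ± 0.45, adjusted p 0.0053), and Gm10352 at 0.461 and 0.717 CPM against 12.9 and 15.1 CPM. The copies are nearly identical, so reads may be shared among them and they are not independent genes. Of 36 Y-linked genes tested 11 were called, with 11 of the 11 higher, beside 1.76% of all genes tested called higher. Among the 11 were Rbmy and its copies Gm10256, Gm10352, Gm21677, Gm21693, Gm21704, Gm21708, Gm3376 and Gm4064. The count is thus not one of independent genes and does not describe the chromosome. Genes present once on the Y stood closer to their confluent levels. Eif2s3y, a translation factor subunit, was at 48.3 and 46.7 CPM in confluent and 62.0 and 53.6 CPM at 24h, and Ddx3y, an RNA helicase, at 69.4 and 61.0 CPM against 33.5 and 63.2 CPM. The Rbmy copies of the rule lost their calls when either confluent library was left out, except that Rbmy kept its call without confluent B (adjusted p 0.04).

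Cholesterol is made from acetyl-CoA through mevalonate, and the SREBP2 transcription factor (Srebf2) raises nearly every enzyme of the route when sterols are low. Of 30 genes of the route and other SREBP targets 29 were tested, 19 fell and 0 rose, 11 were called lower, and the median log2 fold change was -0.94 beside 0 for all genes. The medians were -1.01 in 24h A and -0.92 in 24h B, and 27 of 29 were lower in both replicates. Summed levels were 4240 and 3890 CPM in confluent and 1870 and 2290 CPM at 24h.

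Genes at the head, in the middle and near the end of the route fell. At the head, Hmgcs1, which makes HMG-CoA, stood at 280 and 233 CPM in confluent and 124 and 135 CPM at 24h (-0.98 ± 0.12), and Mvk, the kinase that phosphorylates mevalonate, at 119 and 129 CPM against 74.8 and 59.0 CPM (-0.89 ± 0.13). In the middle, Fdft1, or squalene synthase, stood at 59.8 and 55.8 CPM in confluent and 23.6 and 25.9 CPM at 24h (-1.22 ± 0.10, adjusted p 0.0014). Lss, which closes the sterol rings, had the largest fall that passed in the list, from 116 and 103 CPM to 30.4 and 44.5 CPM (-1.55 ± 0.19, adjusted p 0.0061). Later steps fell as well, with Nsdhl going from 52.4 and 48.5 CPM to 23.0 and 24.3 CPM (-1.09 ± 0.08) and Sc5d from 71.6 and 65.7 CPM to 28.6 and 33.9 CPM (-1.14 ± 0.10).

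The genes called and past 2-fold in each replicate were Lss, Fdft1, Sc5d, Nsdhl, Cyp51 and Sqle. Cyp51 and Sqle lay close to the 2-fold line. With single libraries left out their log2 fold changes ran from -1.1 to -0.98 and from -1.09 to -0.93. Among the other called members, Idi1 and Scd1 were past 2-fold in 24h A alone, and Fdps and Mvd in 24h B alone. Srebf2 itself stood at 257 and 228 CPM in confluent and 115 and 165 CPM at 24h (-0.79 ± 0.16). Tm7sf2 and Ebp were the members lower in 24h B and higher in 24h A. Without confluent A 7 of the 19 kept an adjusted p under 0.05 and without confluent B 11 did, and 17 did with replicate letter as a block.

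**Figure D5:**
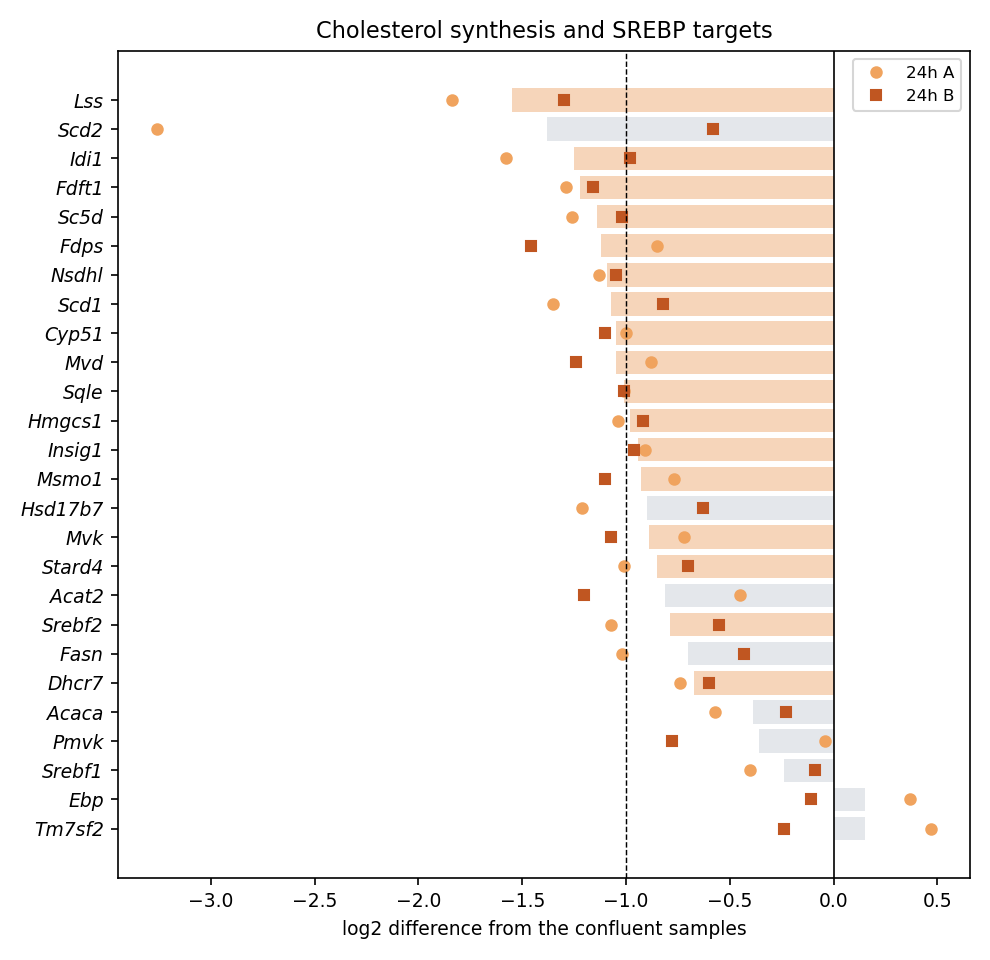
Log2 difference from confluent for 26 of the 29 cholesterol and SREBP genes tested. Bars are the edgeR fold change, tinted for the 17 of them that fell (adjusted p under 0.05) and grey for the others, circles are 24h A and squares 24h B. In 24 genes both symbols lie left of 0, and the replicates of Scd2 lie far apart.

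Stearoyl-CoA desaturases make oleic acid and are SREBP targets too. Scd4 showed the largest fall under the naming rule, from 175 and 143 CPM in confluent to 3.36 and 9.09 CPM at 24h (-4.67 ± 0.87, adjusted p 0.028). It kept its direction in 19 alternative fits but did not pass in 8 of them. Among the 8 were edgeR with replicate letter as a block (adjusted p 0.066) and limma voom with sample weights (0.49). With single libraries left out its log2 fold change ran from -5.54 to -4.13. Scd1 fell from 237 and 196 CPM to 84.6 and 122 CPM (-1.07 ± 0.17) and did not pass in 7 of 19 alternative fits. Scd2 was at 656 and 515 CPM in confluent, 60.7 CPM in 24h A and 388 CPM in 24h B, which did not pass (adjusted p 0.27). These genes are neighbours of like sequence, and reads may be split between them.

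Of the 19 genes that fell, 12 were in the promoter table. A CCAAT box (CCAAT on either strand), the site of the NF-Y factor, was present in 12 of the 12 (100%), against 41.1% of the 27025 genes, and the sterol element TCACNCCAC, on either strand, in 1 of the 12 (8.33%) against 1.44%. Over the 20 list members in the table, 18 (90.0%) held CCAAT. The promoter of Hmgcs1 (chr13:119690101-119690400, plus strand) is shown because it holds both, with the sterol element beginning 137 bases before the start site and 4 CCAAT boxes, read here as ATTGG, in capitals. Short stretches of Idi1 (chr13:8885536-8885621) and Lss (chr10:76531518-76531572), both on the plus strand, show the CCAAT boxes that lie 45 and 14 bases before the start site of Idi1 and 62 before that of Lss.
Hmgcs1: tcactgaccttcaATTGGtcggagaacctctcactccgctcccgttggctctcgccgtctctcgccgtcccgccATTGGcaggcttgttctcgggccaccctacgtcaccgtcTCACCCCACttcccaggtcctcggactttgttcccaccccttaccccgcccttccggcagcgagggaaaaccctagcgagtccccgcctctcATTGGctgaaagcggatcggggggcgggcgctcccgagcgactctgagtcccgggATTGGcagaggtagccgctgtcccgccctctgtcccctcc
Idi1: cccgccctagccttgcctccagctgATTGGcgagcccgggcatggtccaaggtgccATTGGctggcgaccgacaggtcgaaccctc
Lss: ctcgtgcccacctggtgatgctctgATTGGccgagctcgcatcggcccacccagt
The letters were searched in this window alone and say nothing of which factor was bound.

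Other large falls came from several functions. Vcan, or versican, a large proteoglycan of young matrix, went from 74.7 and 68.3 CPM to 21.6 and 33.5 CPM (-1.37 ± 0.21). Spon2, a secreted matrix protein, went from 9.13 and 10.1 CPM to 4.01 and 3.29 CPM (-1.39 ± 0.13), and Rgs4, a brake on G protein signalling, from 8.67 and 7.63 CPM to 3.13 and 3.51 CPM (-1.29 ± 0.15). Lrp8, a lipoprotein receptor for reelin, and Unc13c, a vesicle priming protein, fell by 1.5 and 1.58 on the log2 scale, each by more in 24h A, and the predicted gene Gm13502 fell by 1.38. The genes of this paragraph kept their direction in 19 alternative fits. Lrp8 and Unc13c did not pass in 8 of these, Vcan and Gm13502 in 7, Rgs4 in 6 and Spon2 in 5.

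Immediate early genes, which respond to serum and growth factors within minutes, were mixed. Of 27, 3 rose and 5 fell, beside 3.59% and 1.57% of all genes tested. Fos stood at 14.4 and 13 CPM in confluent and 4.23 and 5.04 CPM at 24h (-1.56 ± 0.14, adjusted p 0.0025), while in subconfluent cells it was at 3.47 and 3.91 CPM, so confluent was the high stage. Egr1 fell from 166 and 149 CPM to 67.2 and 87.4 CPM (-1.03 ± 0.17), past 2-fold in 24h A alone. Junb, Fosl1 and Klf10 fell by 0.72, 0.72 and 0.69. Klf2, a zinc finger factor, rose from 18.1 and 17.0 CPM to 47.3 and 36.5 CPM (1.25 ± 0.14), and Jund and Ccn2, the matricellular CTGF, rose by 0.66 ± 0.15 and 0.54 ± 0.10. Of the 8, 2 kept an adjusted p under 0.05 without confluent A (Fos and Klf2) and 1 without confluent B (Fos).

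Cell cycle genes leaned downward by small amounts. Of 30 mitosis genes 30 had a lower estimate, 29 were lower in both 24h replicates, and the median was -0.55. The mitotic kinase Plk1 fell from 68.9 and 65.2 CPM to 38.4 and 41.3 CPM (-0.75 ± 0.12), cyclin Ccnb1 fell from 63.3 and 58.2 CPM to 38.5 and 39.6 CPM (-0.64 ± 0.10), and the other 28 did not pass. Of 30 DNA replication genes 28 were lower in both, with a median of -0.36, and 4 fell, namely Chaf1a (-0.70 ± 0.11), Mcm5 (-0.63 ± 0.11), Pold1 (-0.55 ± 0.08) and Mcm7 (-0.37 ± 0.08). Over all genes tested 6234 of 20808 were lower in both, and 1.57% fell. With confluent A or confluent B left out, 0 of these 6 kept an adjusted p under 0.05 in edgeR. Among 17 p53 targets tested, Mdm2, the ligase that degrades p53, fell by 0.72 and Ei24 by 0.34, and Sesn1 and Plk2 rose by 0.70 ± 0.10 and 0.45 ± 0.10. Of these 4, Mdm2 alone kept an adjusted p under 0.05 when either confluent library was left out.

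Clock genes moved in both directions. Beside Per1, Nfil3 rose by 0.72 ± 0.10 and Bhlhe41 by 0.48 ± 0.10, while the repressor Nr1d2 fell from 14.0 and 12.3 CPM to 5.86 and 6.6 CPM (-1.08 ± 0.11, adjusted p 0.0031), Ciart fell by 0.97 and Bhlhe40 by 0.68. Nr1d2 was past 2-fold in 24h A alone. The other 11 of the 17 tested did not pass. Among all genes tested 3.59% rose and 1.57% fell. Per1 and Nr1d2 were the 2 of the 6 that kept an adjusted p under 0.05 when either confluent library was left out. The times of day at which cells were collected are not given in the sources used here.

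Of 23 antioxidant genes tested, 4 rose, 5 fell and 14 did not pass, with a median of 0.05. The risers were Mt1, Mt2, the extracellular superoxide dismutase Sod3, from 31.0 and 32.5 CPM to 70.1 and 73.3 CPM (1.17 ± 0.07, adjusted p 0.00057), and the secreted peroxidase Gpx3, at 0.212 and 0.196 CPM at 24h from 0.0738 and 0.07 CPM. Gpx3 was scarce, as 3 counts correspond to 0.0553 CPM in confluent A. It did not pass in 11 of 18 alternative fits, DESeq2 among them (adjusted p 0.06). The NRF2 targets Hmox1, Nqo1, Srxn1 and Gclm fell by 0.63, 0.53, 0.44 and 0.42. Hmox1, which degrades heme, stood at 55.7 and 55.5 CPM in confluent and 38.6 and 33.2 CPM at 24h. Of the 9, Mt2 and Sod3 were the 2 that kept an adjusted p under 0.05 when either confluent library was left out, and Nqo1 and Gclm also missed it with replicate letter as a block (0.068 and 0.081).

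Of 28 genes of amino acid supply and the ATF4 response 7 rose, 3 of them called and 2 of these past 2-fold in each 24h replicate. Vldlr, a lipoprotein receptor, rose from 9.78 and 11.5 CPM to 23.0 and 35.5 CPM (1.46 ± 0.20), Nupr1, a stress-induced chromatin protein, by 1.21 ± 0.20 and the arginine transporter Slc7a3 by 1.46 ± 0.25. Slc1a5, the glutamine transporter, was even at 124 CPM in each 24h sample from 80.5 and 76.8 CPM (0.66 ± 0.08). The median of the list was -0.03, and 1 of the 7 kept an adjusted p under 0.05 without confluent A and 1 without confluent B. Of 26 unfolded protein response genes 0 passed in edgeR, and of 26 HIF targets 2 rose, Ddit4 (0.71 ± 0.09) and Bnip3l (0.58 ± 0.10), of which 0 kept it without confluent A in edgeR and Ddit4 did without confluent B.

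Of 14 chemokines and inflammatory genes tested, 3 rose and 1 fell. Complement C3 stood at 0.277 and 0.146 CPM in confluent and 1.71 and 2.17 CPM at 24h (3.34 ± 0.29). Lcn2, or lipocalin 2, an iron-binding protein, had 0 counts in both confluent samples and 58 and 26 counts at 24h, at least 9.41-fold higher when confluent is set to 3 counts per library. Nfkbia, the inhibitor of NF-κB, rose by 0.72 ± 0.12, and the membrane chemokine Cx3cl1 fell from 49.8 and 47.3 CPM to 23.0 and 26.4 CPM (-0.97 ± 0.11). Nfkbia did not pass in 7 of 19 alternative fits, Cx3cl1 in 5 of 19, Lcn2 in 7 of 18 and C3 in 5 of 18. Of 26 interferon-stimulated genes 1 rose, beside 3.59% of all genes tested. It was Dhx58, an RNA sensor (1.03 ± 0.21), which was not past 2-fold in each 24h replicate. Dhx58 did not pass in 10 of 19 alternative fits, and with single libraries left out its log2 fold change ran from 0.72 to 1.31. Of 5 nuclear-retained long RNAs tested Neat1, the scaffold of paraspeckles, rose from 25.8 and 26.8 CPM to 78.8 and 69.4 CPM (1.49 ± 0.12).

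The label of the cells was checked against marker genes. Runx2, Sp7, Alpl, Col1a1, Bglap, Ibsp, Spp1 and Sparc had reads in each of the 4 samples. The 13 adipocyte markers summed to 10.3 and 12.9 CPM in confluent and 19.1 and 19.2 CPM at 24h, with Cidec and Retn at 0 counts, and 2 of the 6 tested rose, Fabp4, a lipid carrier (0.0184 and 0.0408 against 0.408 and 0.433 CPM), and carbonic anhydrase Car3 (1.40 ± 0.24), neither of which passed when either confluent library was left out. The 12 endothelial markers summed to 9.97 to 15.1 CPM and the 13 muscle markers to 35.6 to 45.3 CPM, and 0 of the 6 and 0 of the 8 tested passed in edgeR. The 16 blood and osteoclast markers summed to 148 and 222 CPM in confluent and 233 and 179 CPM at 24h, with Ptprc, Adgre1, Cd52 and Hbb-bs at 0 and 0 of 9 passed. The 14 chondrocyte markers summed to 382 to 405 CPM in confluent and 244 to 306 CPM at 24h, with Acan at 0. Comp, a cartilage and tendon matrix protein, rose by 1.66 ± 0.26 (adjusted p 0.12 without confluent A and 0.096 without confluent B) while Col2a1 fell. The 11 osteocyte markers summed to 2110 CPM in each confluent sample, 1900 CPM in 24h A and 2900 CPM in 24h B, with Sost at 0. Most of this was Npnt, a matrix protein that binds integrins, at 1830 and 1820 CPM in confluent and 1560 and 2600 CPM at 24h, which did not pass (0.19 ± 0.21, adjusted p 0.62). Of the 11, 9 were tested and 1 rose, Mepe. The part of other cells in these results was not tested, and in bulk RNA a change in the number of such cells and in RNA per cell cannot be told apart.

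The 5 called genes named for the widest gap between the 24h replicates were Mt1, Lrp8, Unc13c, Scd4 and Zfas1. Zfas1 is a noncoding host of small nucleolar RNAs and stood at 68.9 and 77.6 CPM in confluent, 224 CPM in 24h A and 119 CPM in 24h B. Its log2 difference was 1.61 in 24h A and 0.71 in 24h B. Of the 74 called genes that the naming rules gave, 64 were still called without 24h A and 69 without 24h B. Zfas1, Mgp, Scd1 and Nupr1 were among the 10 that were not called without 24h A. Whether counting used strand is not given in the sources used here, so reads of Zfas1 and of an overlapping antisense gene cannot be told apart.

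For genes named above, the level at 24h can be set beside the later stages, 14 and 21 days in osteogenic medium. Tsc22d3 was at 400 and 425 CPM at 14 days and 642 and 645 CPM at 21 days, and Fkbp5 at 174 in both 14-day samples and 176 and 182 CPM at 21 days, each above 24h. Ibsp was at 6060 and 6670 CPM and then 3670 and 3600 CPM, Igf2 at 437 and 487 CPM and then 413 and 374 CPM, so their 24h levels were small beside what followed. Gdpd2, in contrast, was at 28.2 and 30.7 CPM at 14 days and 22.5 and 25.5 CPM at 21 days, under its 24h values of 38.2 and 41.6 CPM. Fdft1 was at 23.9 and 24.5 CPM at 14 days, as at 24h, and at 6.75 and 7.76 CPM at 21 days. Rbmy was at 9.53 and 7.34 CPM at 14 days and 1.23 and 2.67 CPM at 21 days, below 24h and above the 0.553 and 0.98 CPM of confluent. These comparisons are descriptions, with no test.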

How the data were processed

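The deposited gene table holds raw read counts per Ensembl gene, which the authors made from 51 bp paired-end Illumina reads. The submitters' processing notes name mm10, TopHat2 2.0.9, FastQC and R 3.0.1. The counting tool, annotation and use of strand are not given in the sources used here. Gene counts summed to 1.44 to 1.6 times the read number that the deposited RPKM values imply, the most in 24h A, so a read or its mate may be counted more than once, which was not tested and bears on the totals, on low counts and on genes with copies. A second deposited table holds RPKM, which the authors scaled by gene length and reads per sample, and its incomplete last row was left out. Neither table holds fold changes or p-values of the authors. Groups were taken from sample titles, and symbols from the reference gene table (39547 of 40620 IDs matched).

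Counts of the 10 samples in 5 groups were fitted with edgeR 4.0.16 (R 4.3.3), with TMM scaling, filterByExpr and the quasi-likelihood test of 24h minus confluent. Differences of single replicates used log2 CPM with a prior count of 2. Alternatives were DESeq2 1.42.0, limma 3.58.1 (voom with sample weights, and trend on log2 RPKM), other scalings, filters, samples, a replicate block, a length correction and leaving out each library. The 4 samples hold 49717716 to 162939333 counts, so 3 counts correspond to 0.0175 to 0.0553 CPM, a limit that covers counting error only.

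The comparison and the 34 gene lists were chosen with earlier results of these data known, and 2 of the lists after values were seen here. Genes named were the called genes with the largest changes (10 up, 10 down) at a mean of 5 CPM or more and with no overlap of samples, list members with an adjusted p under 0.05, the 5 called genes whose 24h replicates differed most, the genes the study names, and Runx2, Sp7, Alpl, Bglap, Ibsp, Spp1 and Col1a1. Other genes (Scd2, Tm7sf2, Ebp, Klf9, Pdk4, Dmp1, Eif2s3y and Ddx3y, and single members at 0) were named after their values were seen. The replicate letters are not said to mark a shared culture, so no pairing was used in the reported fit. A minus B correlated between groups at -0.33 (confluent and 24h) to 0.32 (subconfluent and 14 days). This cannot tell whether the letters pair samples, because A minus B also ran with gene length. In subconfluent, confluent and 24h the letters also followed the index of the library. Of the list symbols 5 were not matched, and some list members are counted but not reported here by name.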

Additional observations from a re-analysis of the deposited data

How the results depend on the processing

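The 443 calls (367 higher, 76 lower, 339 past 2-fold in each 24h replicate) kept their direction in every alternative that could fit them, but their number depended on which samples set the spread. The fit of the 4 samples gave 0 calls in each class (1824 genes at an unadjusted p under 0.05), and the fit of subconfluent, confluent and 24h gave 71 (58 higher, 13 lower, 70 in each replicate). Sample weights in limma voom gave 69 (63, 6 and 65), DESeq2 gave 690 (165 lower), and log2 RPKM with a pseudocount of 1 gave 178 (114 higher, 116 in each replicate). With any fold size 1072 genes passed (746 and 326), and with more than 4-fold 124 did (112 and 12). Leaving out 1 library gave 141 to 2388 calls, 120 to 1016 higher and 21 to 1372 lower (the share higher was 42.5% without 24h B), with 128 to 2336 past 2-fold in the 24h samples that remained. The lowest counts were without confluent A, and the highest without 24h B, where 24h A is 1 sample assumed to vary like the other groups. Other scalings, filters and the length correction moved the count of calls by less than 1.5 times, from 368 with library size alone to 526 with the length trend removed.

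Whether the replicate letters pair the samples is not known. With the letter as a replicate block 320 genes were called (270 higher, 50 lower), 316 of them among the 443. Because A minus B of confluent and of 24h correlated at -0.33, a crossed block in the 4 samples was added after seeing the data and gave 22 calls (17 higher, 5 lower, 20 in each replicate), against 75 (65, 10 and 75) for the uncrossed block.

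For 144 named genes, 2728 values were recomputed, of which 1827 kept direction and side of the threshold, 883 kept direction but did not pass, 7 newly passed and 11 changed sign. Of the 74 called genes among them, 32 kept an adjusted p under 0.05 without confluent A, 38 without confluent B, 73 without 24h A and 74 without 24h B, while 29, 38, 64 and 69 were also past 2-fold and so still called. The 7 that newly passed belong to Runx2 and Runx1, with 2 each, and to Col1a1, Nr3c1 and Bglap3, with 1 each. The 11 that changed sign belong to 4 genes that did not pass in the reported fit. Col1a1 ranged from -0.55 without 24h B to 0.08 without 24h A. Kdm1b, at 0.10 in the reported fit, went to 0 with sample weights, -0.03 and -0.07 on log2 RPKM with a pseudocount of 1 and 0.1, and ranged from -0.47 without 24h B to 0.51 without 24h A, and Kdm1a from -0.1 without 24h A to 0 without 24h B. Spp1 went to 0.01 with upper-quartile factors, 0 with no filter and 0 with at least 10 counts in every sample, 0.05 without confluent A, and ranged from -0.08 without 24h A to 0.08 without 24h B. The cause of these changes was not tested.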
